A study of Mus musculus with 6 samples.

Results

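The interferon response and antigen presentation genes are a set of 45 mouse genes that sense infection, carry or answer interferon signals, or display peptides on major histocompatibility complex (MHC) class I. They were picked by gene symbol, at a time when earlier results of these arrays were known, so the counts of members describe this set and are no independent test of it. Of the 45, 44 had a probe set that names that gene alone, among 18193 such genes on the array, and where a gene had several, the brightest over the 6 arrays stood for it. Isg15, which encodes a ubiquitin-like modifier, shares its probe set with another gene and was not analysed here. Of the 44, 32 passed a filter of log2 4 or more on at least 3 of the 6 arrays and were tested, among 10531 tested genes in all. Of the 32 members, 6 were read at a probe set of suffix s or x, whose probes can bind other transcripts. They are Ifi35, Trim25 and Irf2 (suffix s), and Irf3, H2-D1 and H2-K1 (suffix x).

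The arrays compare Spot14 GFP positive with Spot14 GFP negative mouse neural stem cells, 3 arrays each, which the labels call biological replicates. GFP is green fluorescent protein, and the labels give each sample a Spot14 GFP status. Spot14 is the product of Thrsp, a thyroid hormone responsive gene known from lipogenic tissues. Total RNA was hybridised to Affymetrix arrays and the values, made with GCRMA, are log2 expression. Mouse strain, age, culture conditions, the reporter construct and the way positive and negative cells were separated are not given in the sources used here. Nor is it given whether replicates came from separate animals or cultures, so the p-values measure the spread between these samples.

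Interferons are secreted proteins that cells release on viral infection. Type I interferons bind Ifnar1 and Ifnar2, and interferon gamma binds Ifngr1 and Ifngr2. The receptors act through Stat proteins and Irf9 on DNA elements called the interferon-stimulated response element (ISRE) and the gamma-activated site (GAS). The genes switched on include antiviral proteins such as the Ifit family, GTPases that attack intracellular pathogens, and the machinery that loads peptides on MHC class I. Stem cells of several kinds are known to express part of this programme without infection.

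Members of the Ifit and GTPase groups were higher in GFP positive cells, and those of MHC class I, the receptors and the Irf and Stat factors did not pass the test. The 7 members that rose were Ifit3, Gbp6, Parp14, Rtp4, Igtp, Irgm1 and Ifit2, by 2.11-fold to 6.64-fold. A rise in cells that express a gene and a rise in RNA per cell cannot be told apart in these samples. They make up 7 of 32 tested members, or 21.9%, where 2.35% of all genes tested were called higher. Rtp4 passed the filter through the GFP positive arrays alone, and without it 6 of 31 members (19.4%) were called. No member was called lower by limma, against 2.11% of all genes, and calls in either direction took in 4.46% of all genes. At an unadjusted p under 0.05, 13 members were higher and 1 lower, beside 9.92% and 8.28% of all genes. The median difference over the 32 tested members, GFP positive minus GFP negative, was 0.41 on the log2 scale, beside 0.005 over all genes tested. Over all 44 members with a probe set it was 0.33. The difference was above 0 for 25 of 32 tested members, and for 50.5% of all genes.

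These calls depended on the settings and on single arrays. With no filter on low values Ifit2 and Ifit3 alone were called (limma adjusted p = 0.0141 and 0.0344), and the other 5 had a limma adjusted p of 0.0508 to 0.122. With trend and robust settings in limma Igtp, Rtp4 and Parp14 were not called, and in a fit of all probe sets Igtp and Parp14 were not called. The number of members called higher was 0 without GFP positive replicate 1, 1 without GFP positive replicate 2 (Ifit3) and 0 without GFP positive replicate 3. It was 5 without GFP negative replicate 1 (Ifit2, Ifit3, Gbp6, Irgm1 and Eif2ak2, the last not called with all arrays). It was 2 without GFP negative replicate 2 (Ifit3 and Gbp6). Without GFP negative replicate 3 it was 11, as Irf1, Ddx58, Rsad2 and Ifi35 joined the members called with all arrays. In the fits with a count of 0, the unadjusted p was under 0.05 for 11 higher members without GFP positive replicate 1 and for 13 without GFP positive replicate 3. GFP negative replicate 3 correlated across genes at 0.954 and 0.952 with GFP negative replicates 1 and 2, which correlated at 0.982 with each other. The GFP positive arrays correlated at 0.985 to 0.993 with each other. Without GFP negative replicate 3, 7.61% of all genes were called higher and 4.21% lower.

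Sequences just upstream of the called members show what DNA lies near their starts. RefSeq windows of 300 bases on mouse build GRCm38.p6, from 250 bases before to 50 bases after an annotated start, were at hand for 35 members, 4 of them called. Both strands were searched for the ISRE core, which is GAAA, any 2 bases and GAAA again, and for the GAS letters TTCNNNGAA. The ISRE core stood in windows of 16 of the 35 members (45.7%), and of 3.99% of all genes with a window. GAS letters stood in windows of 12 of 35 (34.3%), and of 9.55% of all genes. The members were picked as interferon response and antigen presentation genes, so these shares describe the chosen genes and not the arrays. The called members Gbp6, Parp14 and Rtp4 had no window at hand. The 4 called members with a window are shown here, with ISRE core and GAS letters in capitals. The windows are chr19:34583279-34583578, plus strand, for Ifit3, chr11:58199306-58199605, plus strand, for Igtp, chr11:48871371-48871670, minus strand, for Irgm1, and chr19:34550444-34550743, plus strand, for Ifit2.
Ifit3: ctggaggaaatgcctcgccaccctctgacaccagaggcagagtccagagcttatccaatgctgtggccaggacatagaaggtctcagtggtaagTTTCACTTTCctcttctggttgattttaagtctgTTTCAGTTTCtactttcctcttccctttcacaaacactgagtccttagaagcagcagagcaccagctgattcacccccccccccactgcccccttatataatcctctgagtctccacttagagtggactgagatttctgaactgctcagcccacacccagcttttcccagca
Igtp: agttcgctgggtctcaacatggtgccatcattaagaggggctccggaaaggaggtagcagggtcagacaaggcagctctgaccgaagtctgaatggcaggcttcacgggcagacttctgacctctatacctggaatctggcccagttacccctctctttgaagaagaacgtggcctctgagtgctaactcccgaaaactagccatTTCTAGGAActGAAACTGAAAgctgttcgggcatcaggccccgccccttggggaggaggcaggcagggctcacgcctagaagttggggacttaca
Irgm1: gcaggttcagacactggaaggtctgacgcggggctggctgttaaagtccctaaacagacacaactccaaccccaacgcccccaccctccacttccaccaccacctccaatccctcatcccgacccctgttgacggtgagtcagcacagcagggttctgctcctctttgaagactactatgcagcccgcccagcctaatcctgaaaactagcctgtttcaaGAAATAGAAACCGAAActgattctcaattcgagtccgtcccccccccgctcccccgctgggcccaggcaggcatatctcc
Ifit2: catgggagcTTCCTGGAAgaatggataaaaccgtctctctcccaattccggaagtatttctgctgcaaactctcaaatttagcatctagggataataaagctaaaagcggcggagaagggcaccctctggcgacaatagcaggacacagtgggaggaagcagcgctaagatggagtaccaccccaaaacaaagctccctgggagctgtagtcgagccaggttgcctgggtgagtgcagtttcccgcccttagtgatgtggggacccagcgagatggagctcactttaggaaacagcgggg
In Ifit3 the 2 ISRE core matches begin 156 and 122 bases before the start, on the minus strand, where they read as the reverse complement. In Igtp a GAS match begins 45 bases and an ISRE core match 34 bases before the start. In Irgm1 2 ISRE core matches begin 30 and 24 bases before the start and overlap each other. Ifit2 has a GAS match 241 bases before this start and no ISRE core in the window, and its other annotated start has neither. A match is a description of letters and not a measured site. Members that were not called hold the ISRE core too: 8 of 22 tested but not called, and 4 of 8 below the filter. GAS letters stood in 7 of these 22 and 3 of these 8, beside 2 of the 4 called.

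Ifit proteins bind foreign RNA and block its translation. Ifit3 measured 8.38, 7.81 and 7.87 on GFP positive arrays, against 4.75, 5.30 and 5.82 on GFP negative arrays (log2 expression). The groups did not overlap. Ifit3 averaged 8.02 ± 0.32 in GFP positive and 5.29 ± 0.53 in GFP negative cells (SD, n = 3 each). This is 6.64-fold higher, or 2.73 on the log2 scale (SE 0.31, 95% limma interval 2.01 to 3.45), with a limma adjusted p of 0.00999. Its neighbour Ifit2 read 8.46, 8.49 and 8.49 on GFP positive arrays and 7.49, 7.30 and 7.42 on GFP negative arrays. These groups lay apart with little spread in either, and the difference was 1.08 (SE 0.16, limma adjusted p = 0.0163), or 2.11-fold. Ifit1, the family's founding member, stayed near background at 2.55, 2.91 and 2.45 on GFP positive arrays and 2.07 to 2.09 on GFP negative arrays, and was not tested. In the RefSeq order of protein-coding genes no gene lies between Ifit2 and Ifit3.

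**Figure D1:**
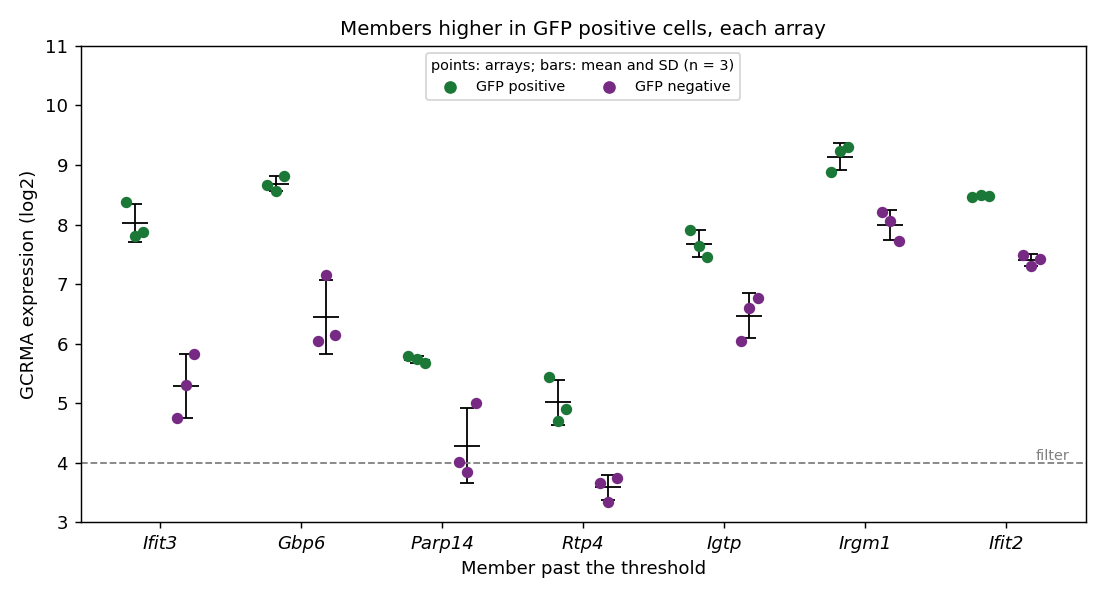
GCRMA expression (log2, vertical axis) of the 7 members past the threshold on each array, with green points for GFP positive arrays, purple points for GFP negative arrays, and bars for the mean and SD (n = 3 each). For each of the 7 genes every GFP positive array lies above every GFP negative array, and Rtp4 lies under the filter of log2 4 (dashed line) on all GFP negative arrays.

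Guanylate-binding proteins (Gbp) and immunity-related GTPases (Irg) coat and disrupt the vacuoles of intracellular pathogens, and are best known as targets of interferon gamma. Of the 5 members, 3 rose and 2 did not pass, where 2.35% of all genes tested were called higher. Gbp6 measured 8.67, 8.56 and 8.81 on GFP positive arrays, against 6.04, 7.16 and 6.15 on GFP negative arrays. The groups did not overlap, and GFP negative replicate 2 was the nearest to the GFP positive arrays. The difference was 2.23 (SE 0.31, limma adjusted p = 0.0153), or 4.70-fold. Another probe set of Gbp6 differed by 2.18, and it passed too when all probe sets above the filter were fitted (limma adjusted p = 0.0212).

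Irgm1, a regulator of the other Irg GTPases and of autophagy, measured 8.88, 9.23 and 9.31 on GFP positive arrays and 8.22, 8.06 and 7.72 on GFP negative arrays. Igtp, also called Irgm3, measured 7.91, 7.65 and 7.46 on GFP positive arrays and 6.04, 6.60 and 6.77 on GFP negative arrays. In both genes the groups lay apart, with a wider gap between the group means than the spread within either. Irgm1 was 2.20-fold higher (1.14, SE 0.21, limma adjusted p = 0.0311) and Igtp 2.30-fold higher (1.20, SE 0.24, limma adjusted p = 0.0403). Gbp3 did not pass, with 8.15, 8.48 and 8.52 on GFP positive arrays and 8.19, 8.63 and 8.19 on GFP negative arrays. Its difference was 0.05, with a 95% interval of −0.44 to 0.53. Gbp2 differed by 0.49 (95% interval −0.08 to 1.05, limma adjusted p = 0.351), and its groups overlapped.

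**Figure D2:**
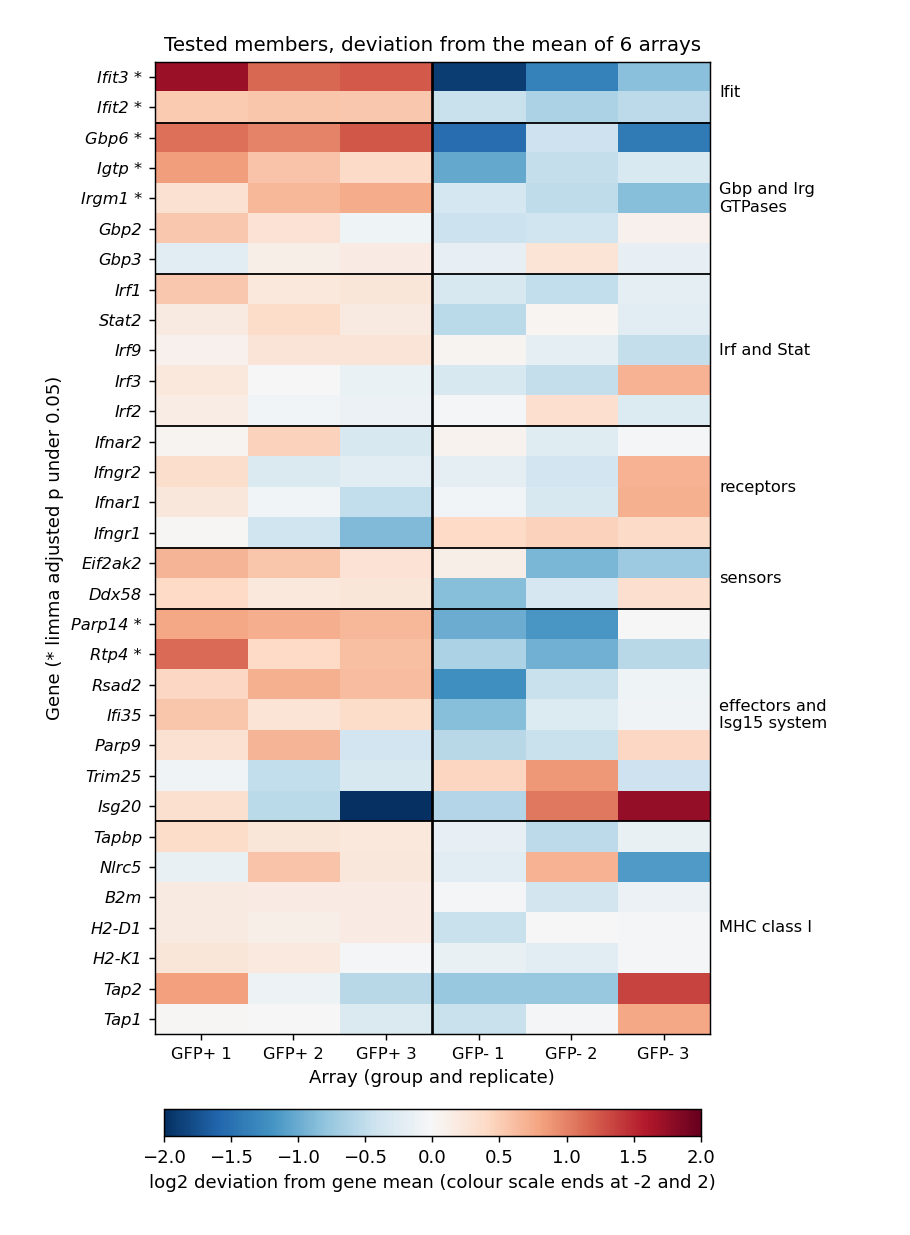
Deviation of each tested member from its own mean over the 6 arrays (colour, log2, red above and blue below), with arrays in columns, GFP positive left of GFP negative, and the 32 genes in rows by role; stars mark a limma adjusted p under 0.05. Ifit, Gbp6, Igtp, Irgm1, Parp14 and Rtp4 rows are red on GFP positive arrays, while Ifnar1, Ifngr2, Tap1 and Tap2 are reddest on GFP negative replicate 3.

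The transcription factors that carry the signal did not pass. Of 7 Irf and Stat members, 5 were tested and 0 passed with limma. Of the 5, 2 were higher at an unadjusted p under 0.05, where 9.92% of all genes tested were. Irf1, an activator of MHC class I and GTPase genes, measured 10.49, 10.16 and 10.20 on GFP positive arrays, against 9.63, 9.45 and 9.77 on GFP negative arrays. The groups did not overlap, yet the difference of 0.66 (SE 0.19, 95% interval 0.23 to 1.10) had a limma adjusted p of 0.104. Without GFP negative replicate 3 it passed (limma adjusted p = 0.0420). Stat2 and Irf9, parts of the factor that binds the ISRE, differed by 0.49 and 0.40 (limma adjusted p = 0.258 and 0.351). Irf3, which sensors activate by phosphorylation, measured 9.48, 9.27 and 9.14 on GFP positive arrays and 8.95, 8.79 and 9.97 on GFP negative arrays, with the highest and the lowest value both on GFP negative arrays. The difference was 0.06 there and −0.02 at another probe set of Irf3, and neither passed. Irf2 differed by −0.01. Irf7, the amplifier of type I interferon, and Irf8, a factor of myeloid cells, stayed between 2.25 and 2.45 on all 6 arrays and were not tested.

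The interferon receptors did not pass, and 3 of the 4 had a difference below 0. Ifnar1 measured 9.78, 9.49 and 9.05 on GFP positive arrays and 9.502, 9.23 and 10.26 on GFP negative arrays, which overlapped (−0.22, 95% interval −0.96 to 0.52). Ifnar2 measured 7.43, 7.83 and 7.05 on GFP positive arrays and 7.45, 7.13 and 7.35 on GFP negative arrays, with a difference of 0.13 (95% interval −0.43 to 0.68). Ifngr1, the ligand-binding chain for interferon gamma, measured 5.33, 4.90 and 4.42 on GFP positive arrays and 5.70, 5.76 and 5.69 on GFP negative arrays. It is the 1 tested member whose GFP positive arrays all lay below the GFP negative ones. The difference of −0.84 (SE 0.25) did not pass (limma adjusted p = 0.121). Ifngr2, the signalling chain, differed by −0.09. In GFP negative replicate 3 the 4 receptors had a median of 0.55 above their own means, the highest of the 6 arrays.

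Of 6 sensors and enzymes of foreign RNA, 2 were tested and 0 passed with limma. Of the 2, 1 was higher at an unadjusted p under 0.05, where 9.92% of all genes tested were. Eif2ak2, the kinase PKR that halts translation on double-stranded RNA, measured 9.59, 9.47 and 9.19 on GFP positive arrays, against 9.03, 8.0 and 8.18 on GFP negative arrays. The groups lay apart, with GFP negative replicate 1 close to the GFP positive arrays, and the difference was 1.01 (SE 0.29, limma adjusted p = 0.112). It passed without GFP negative replicate 1 (limma adjusted p = 0.0352). Another probe set of Eif2ak2 also had groups apart, with a difference of 0.91 (limma adjusted p = 0.0618 in the fit of all probe sets). There GFP negative replicate 1 read 8.22, below the GFP positive arrays at 8.81 to 9.12. At a further probe set the groups overlapped and the difference was 0.47 (limma adjusted p = 0.587 in that fit). Ddx58, the RNA sensor RIG-I, measured 5.83, 5.65 and 5.68 on GFP positive arrays and 4.59, 5.10 and 5.77 on GFP negative arrays, so the groups overlapped through GFP negative replicate 3. Its difference was 0.57 (limma adjusted p = 0.384), or 1.15 at another probe set whose groups lay apart (limma adjusted p = 0.0723 in the fit of all probe sets). Without GFP negative replicate 3 Ddx58 passed (limma adjusted p = 0.0379).

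Ifih1, the RNA sensor MDA5, reached log2 4 on 1 array, at 3.58, 4.10 and 3.69 on GFP positive and 2.504, 3.39 and 3.35 on GFP negative arrays. Dhx58 (2.48 to 3.12), Oas1a (1.89 to 2.01) and Oasl2 (2.25 to 2.51) stayed near background on all 6 arrays. For such genes the values bear little on the transcript, since GCRMA pulls dim probe sets toward a floor.

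Among 13 effectors and genes of the Isg15 system, 12 had a probe set of their own and 7 were tested; 2 rose and 5 did not pass, where 2.35% of all genes tested were called higher. One of the 2 is Rtp4, whose GFP negative arrays all lay under the filter. Parp14, a mono-ADP-ribosyltransferase, measured 5.79, 5.73 and 5.67 on GFP positive arrays, against 4.02, 3.84 and 5.004 on GFP negative arrays. The GFP positive arrays were tight, and GFP negative replicate 3 came nearest to them. The difference was 1.44 (SE 0.31, limma adjusted p = 0.0474), or 2.72-fold. Rtp4, a chaperone of receptors at the cell surface and known target of type I interferon, measured 5.44, 4.70 and 4.90 on GFP positive arrays and 3.66, 3.34 and 3.75 on GFP negative arrays. The groups did not overlap. Its difference of 1.43 (SE 0.24, limma adjusted p = 0.0248), or 2.69-fold, rests on values near background in GFP negative cells.

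Rsad2, the antiviral enzyme viperin, measured 7.53, 7.83 and 7.74 on GFP positive arrays and 5.89, 6.68 and 7.03 on GFP negative arrays. These groups lay apart, and the difference of 1.17 (SE 0.30) was not called (limma adjusted p = 0.0805). It was called without GFP negative replicate 3 (0.0223). Ifi35, an interferon-induced leucine zipper protein, measured 7.74, 7.47 and 7.55 on GFP positive arrays and 6.33, 6.91 and 7.12 on GFP negative arrays. It differed by 0.80 (limma adjusted p = 0.122, and 0.0373 without GFP negative replicate 3). Parp9, a partner of Dtx3l in ADP-ribosylation, differed by 0.39 with overlapping groups, although no protein-coding gene but Dtx3l lies between it and Parp14 in the RefSeq order.

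Isg20, an RNA exonuclease, measured 4.65, 3.78 and 2.31 on GFP positive arrays and 3.74, 5.38 and 6.08 on GFP negative arrays. The groups overlapped with a wide spread, and its difference of −1.48 (95% interval −3.21 to 0.24) did not pass. Trim25, a ubiquitin ligase that activates RIG-I, differed by −0.58 (limma adjusted p = 0.422). Without GFP negative replicate 3 it was the 1 member called lower (limma adjusted p = 0.0374). Xaf1, a proapoptotic interferon target, measured 4.55, 4.50 and 3.49 on GFP positive and 3.24, 2.95 and 3.04 on GFP negative arrays. It missed the filter and was not tested. Usp18, Mx1, Mx2 and Bst2, which are classical type I interferon targets, stayed between 2.11 and 2.92 on all 6 arrays.

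**Figure D3:**
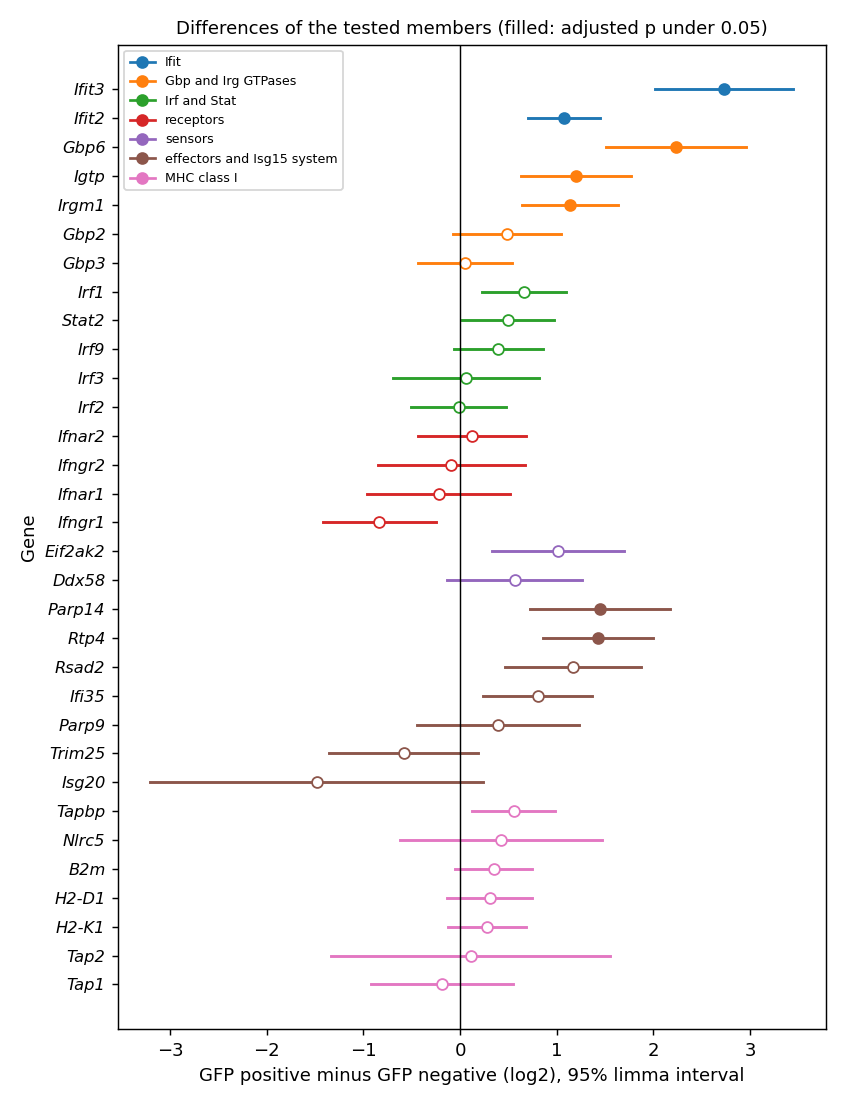
Difference of each tested member, GFP positive minus GFP negative (log2, horizontal axis), with the 95% limma interval, coloured by role; filled points have a limma adjusted p under 0.05. The filled points run from 1.08 (Ifit2) to 2.73 (Ifit3), and those of the receptors and of MHC class I are all open.

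MHC class I is a heavy chain such as H2-K1 or H2-D1 held by B2m, and Tap1, Tap2 and Tapbp deliver and load its peptides. All 7 members were tested and 0 passed with limma. Of them 1 was higher at an unadjusted p under 0.05, where 9.92% of all genes tested were. The median difference was 0.31, and 4 of the 7 had all GFP positive arrays above the GFP negative ones, where 13.8% of all genes tested did. B2m measured 12.90, 12.88 and 12.88 on GFP positive arrays, against 12.67, 12.34 and 12.60 on GFP negative arrays. Its GFP positive arrays lay above the others by a small margin, a difference of 0.35 (95% interval −0.05 to 0.75, limma adjusted p = 0.351) or 1.27-fold. At another B2m probe set the groups overlapped and the difference was 0.13: it read 12.02, 11.67 and 11.61 on GFP positive and 11.57, 11.37 and 11.98 on GFP negative arrays. Tapbp, the protein tapasin, measured 11.45, 11.32 and 11.30 on GFP positive arrays and 10.91, 10.56 and 10.94 on GFP negative arrays. It differed by 0.55 (SE 0.18, limma adjusted p = 0.157). Tap1 differed by −0.18 and Tap2 by 0.11, both with overlapping groups. Nlrc5, the activator of MHC class I genes, differed by 0.43 (95% interval −0.62 to 1.47).

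The heavy chain readings depended on the probe set. H2-D1 had 4 probe sets above the filter, and 3 of them carry the suffix x, which marks probes that can bind other genes; MHC class I genes are alike in sequence, so these are uncertain. At its brightest probe set, of suffix x, H2-D1 read 7.80, 7.74 and 7.79 on GFP positive and 7.18, 7.64 and 7.59 on GFP negative arrays, a difference of 0.31 (limma adjusted p = 0.470). The probe set without a suffix read 7.01, 7.01 and 7.02 on GFP positive and 4.82, 6.04 and 5.64 on GFP negative arrays. Both separated the groups, but the second differed by 1.51, or 2.85-fold. In a fit without suffixed probe sets that value passed (limma adjusted p = 0.0406), and in a fit of all probe sets it did not (0.0607). All 3 probe sets of H2-K1 above the filter carry the suffix x and differed by 0.27 to 0.31.

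**Figure D4:**
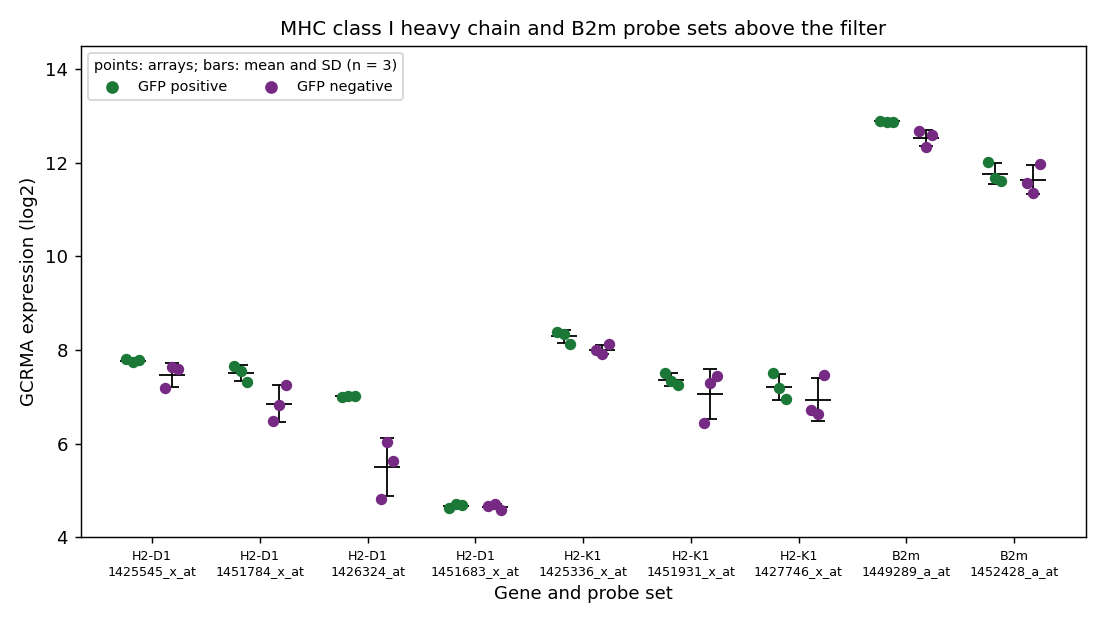
GCRMA expression (log2, vertical axis) at each probe set of H2-D1, H2-K1 and B2m above the filter, with green points for GFP positive and purple points for GFP negative arrays, and bars for the mean and SD (n = 3 each). The H2-D1 probe set without a suffix shows a difference of 1.51, against 0.02 to 0.65 at the other H2-D1 probe sets.

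Across the members, 17 of 32 tested had all GFP positive arrays above all GFP negative arrays, where 13.8% of all genes tested did. For 1 the order was the other way, against 11.5% of all genes. The median of the tested members, relative to each gene's own mean, was 0.32, 0.25 and 0.18 on the GFP positive arrays, against −0.39, −0.38 and −0.10 on GFP negative replicates 1, 2 and 3. By this median of the members alone, GFP negative replicate 3 lay nearer to the GFP positive arrays than the other GFP negative arrays did. Over all genes tested, GFP negative replicate 3 correlated at 0.955, 0.951 and 0.935 with GFP positive replicates 1, 2 and 3. GFP negative replicate 1 correlated with them at 0.965, 0.972 and 0.968, and GFP negative replicate 2 at 0.953, 0.962 and 0.958. Leaving GFP negative replicate 3 out lowered the limma adjusted p of each of the 7 called members, with values of 0.00487 to 0.0234. In that fit 801 of all genes were called higher, against 248 with all arrays. The unadjusted limma p fell for Ifit2, Ifit3, Igtp and Parp14. It rose for Gbp6 (from 0.0001383 to 0.0004735), Irgm1 (from 0.0008674 to 0.001228) and Rtp4 (from 0.0004922 to 0.000707). Over all 6 fits with 1 array left out, the adjusted p of Ifit3 ran from 0.00504 to 0.0637 and that of Parp14 from 0.00487 to 0.175. Unadjusted, the highest p among the 7 members in these fits was 0.00981.

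**Figure D5:**
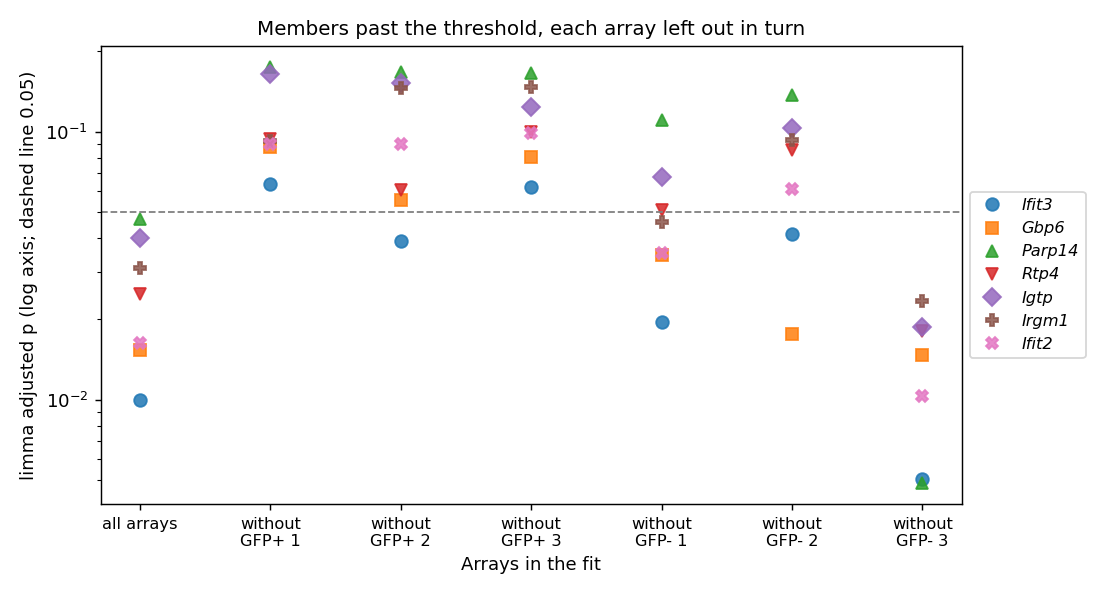
The limma adjusted p (log axis, dashed line at 0.05) of the 7 called members with all arrays and with each array left out in turn. No member is under the line without GFP positive replicate 1 or 3, and all 7 are under it without GFP negative replicate 3.

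Other genes of the pathway were listed for comparison. Of 103 other pathway genes listed, 87 had a probe set and 54 were tested; 2 rose, 1 fell and 51 did not pass, and the median difference was 0.24. The share called higher, 3.70%, is near the 2.35% of all genes, and 2.11% of all genes were called lower. Trim30a, an interferon-induced ubiquitin ligase, measured 7.68, 7.15 and 7.40 on GFP positive arrays, against 5.24, 5.36 and 4.95 on GFP negative arrays. It was 4.69-fold higher (2.23, SE 0.21, limma adjusted p = 0.00766), with the groups far apart, and its probe set carries the suffix a. Irgm2, which directly neighbours Igtp in the RefSeq order, measured 5.84, 6.57 and 6.19 on GFP positive arrays and 4.49, 2.72 and 4.001 on GFP negative arrays. Its difference was 2.46 (SE 0.45, limma adjusted p = 0.0304), with a mean near background in GFP negative cells. Cgas, the sensor of cytosolic DNA, fell, at 4.97, 4.70 and 4.22 on GFP positive and 6.17, 7.05 and 6.55 on GFP negative arrays (−1.96, SE 0.29, limma adjusted p = 0.0163). Without GFP positive replicate 1 or 3 none of these 3 passed (limma adjusted p = 0.0561 to 0.117). In those fits 2 and 1 of all genes were called higher and 0 lower. Without GFP positive replicate 2 Trim30a passed (limma adjusted p = 0.0337), and Irgm2 and Cgas did not (0.1105 and 0.0647). Without GFP negative replicate 2 Cgas did not pass either (limma adjusted p = 0.0564).

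Of the 13 tested signalling genes 0 passed with limma, and 1 was higher at an unadjusted p under 0.05, where 9.92% of all genes were. Socs3, a feedback inhibitor of Stat signalling, differed by 0.63 (limma adjusted p = 0.183) and Stat3 by 0.44 (0.549). Of 11 tested genes of antigen processing 0 passed, nor did any at an unadjusted p under 0.05. The chaperones Calr and Canx differed by −0.08 and 0.36. All 5 interferon genes with a probe set, Ifnb1, Ifng and 3 interferon alpha genes, lay between 2.06 and 2.49 on all 6 arrays.

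Markers of other cell types bear on these values, since microglia and endothelial cells express many of the same genes. Of 18 microglia and macrophage markers 16 lay below the filter on these arrays, from 1.94 to 3.93, among them the defining genes C1qa, Cx3cr1, P2ry12, Tmem119 and Tyrobp. Csf1r (0.02) and Cd68 (−0.03) were tested and did not pass. The summed linear signal of all 18 was 230 to 262 on GFP positive and 203 to 262 on GFP negative arrays. Cd68, at 6.44 to 7.3 on the log2 scale, weighs most in this sum, and the 16 below the filter add mainly background. Of 13 endothelial markers with a probe set 12 lay below the filter. Of 11 neural stem and progenitor markers 10 had a probe set and 9 were tested, with a median difference of 0.38. Nr2e1, the orphan receptor Tlx that maintains such cells, rose (0.86, limma adjusted p = 0.0308) and 8 did not pass. Nes, Sox2, Vim and Fabp7 read 11.01 or more on all 6 arrays, Hes5 read 4.35 to 5.26, and Prom1 lay below the filter. Of 11 tested astrocyte markers 4 rose and 7 did not pass (median 0.95), where 2.35% of all genes were called higher. Of 16 mitosis genes 15 fell (median −1.81), where 2.11% of all genes were called lower. The part of these genes in the member differences was not tested. The excess of 3′ over 5′ signal of the Gapdh control was 1.23 to 1.32 on GFP positive arrays and 1.14, 2.33 and 1.65 on GFP negative replicates 1, 2 and 3.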

How the data were processed

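Total RNA of 3 Spot14 GFP positive and 3 GFP negative neural stem cell samples was hybridised to Affymetrix arrays. Each probe set has a log2 value that the authors deposited; the submitters' processing notes name GCRMA, without a version or a genome build. GCRMA equalises the distribution of probe signal between arrays, so a shift of all genes would not be seen. Folds near its floor depend on the background estimate. The deposited probe set values were not fully equalised, with array medians from 4.47 (GFP positive replicate 3) to 4.74 (GFP negative replicate 3). The number of arrays limits the precision.

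Of 45101 probe sets, 34945 named 1 gene in the platform annotation. Gene IDs of 34741 were found in RefSeq GRCm38.p6, with 0 symbols that differed, and the other 204 kept the platform's symbol. In the lists, Tmem173 and Mb21d1 were matched as Sting1 and Cgas. The brightest probe set stood for each gene. Genes at log2 4 or more on at least 3 of 6 arrays were fitted with limma 3.58.1 in R 4.3.3 (lmFit, eBayes, no covariate) and p-values were adjusted by Benjamini-Hochberg over all 10531 genes, with a threshold of 0.05. The procedure was tested on simulated data. Members and lists were chosen with earlier results of these data known, so no list was tested. Named were all called members, the 2 brightest and the most different tested member of each role, and, of other pathway lists, up to 2 called genes per direction or the 2 brightest; other names complete counts and were chosen after their values were seen. Alternatives were the filter, normalization, probe sets, variance model, array weights, a replicate block and each array left out.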

Additional observations from a re-analysis of the deposited data

How the results depend on the processing

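The main counts were 7 members higher and 0 lower, 2 other pathway genes higher and 1 lower, and 248 genes higher and 222 lower. With no filter on low values 2 members were higher (Ifit2 and Ifit3), and among other pathway genes 1 was higher and 0 lower, while 101 of all genes were lower. With a filter at log2 6, 1 other pathway gene was higher; Rtp4 and Parp14 were then not tested. With trend and robust settings 4 members were higher (Ifit2, Ifit3, Gbp6 and Irgm1), and with all probe sets Igtp and Parp14 were not called. In the fit with array weights, GFP positive replicate 2 counted most, at 8.35, and GFP negative replicate 3 least, at 0.152. The remaining arrays lay between 0.762 and 1.22, so the GFP positive side of that fit rests largely on 1 array. With these weights 13 members were higher and 2 lower (Ifngr1 and Trim25), and 5 other pathway genes were higher. Of all genes, 1051 were higher and 603 lower. Without suffixed probe sets the median difference of the members was 0.79, over fewer tested members. With each array left out in turn, 0 to 11 members were higher and 0 to 1 lower, 0 to 6 other pathway genes were higher and 0 to 1 lower, and 1 to 801 of all genes were higher and 0 to 443 lower. The median difference of the members ran from 0.36 to 0.56 in these fits. Quantile normalization and a common median kept the 7 member calls, and the common median added Rsad2. No named gene that was called changed its direction in these fits. The cause of the other changes was not tested.

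Samples share replicate numbers between the groups, and the deviations of same-numbered samples from their group means correlated at −0.25, 0.05 and −0.50. Correlations from 3 arrays per group cannot decide whether same-numbered samples share an origin, which the sources used here do not give. With a replicate block 0 members were higher (Ifit3 adjusted p = 0.0522), 1 other pathway gene was higher and 0 lower, and 19 of all genes were higher and 8 lower.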

Other observations

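Sting1, the adaptor that relays the signal of Cgas, was looked at after the value of Cgas was seen. It measured 8.57, 8.74 and 8.05 on GFP positive arrays, against 8.90, 9.16 and 9.99 on GFP negative arrays. The groups did not overlap, and the difference of −0.90 (SE 0.33) did not pass (limma adjusted p = 0.195). Lgals3bp, a secreted glycoprotein induced by interferon, measured 6.98, 6.86 and 6.96 on GFP positive arrays and 5.01, 4.98 and 6.452 on GFP negative arrays. It was also picked after its values were seen, and its difference of 1.45 was not called (limma adjusted p = 0.0940) but was without GFP negative replicate 3 (0.00373).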
